A study of Sus scrofa with 9 samples.

Results

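The genes described here are 10 antioxidant enzymes of the abdominal aorta: the superoxide dismutases SOD1, SOD2 and SOD3, catalase (CAT), the glutathione peroxidases GPX1, GPX3 and GPX4, the peroxiredoxin PRDX1, the thioredoxin reductase TXNRD1 and the quinone reductase NQO1. They were chosen by gene name from a table of 21357 genes, in which 9 carry their names and PRDX1 was found by its gene ID. All 10 were measured in 9 RNA-seq libraries of Tibetan minipigs, a small pig breed, in 3 groups of 3. The NC group received a normal diet for 24 weeks, the H8 group a high-fat diet for 8 weeks and the H24 group a high-fat diet for 24 weeks, which is the atherosclerosis group of the study. The study describes the NC and H24 animals as young males of which 3 of each group were sequenced, and its diet as rich in fat and cholesterol. It does not describe the H8 animals, for which the labels give neither sex nor age. All NC libraries are from 24 weeks, so that in H8/NC the diet and the length of feeding, and with it the age, cannot be told apart. In H24/H8 the length of the diet and the age cannot be told apart, as the labels hold no normal-diet group of 8 weeks.

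These enzymes work in relays against reactive oxygen species. Superoxide dismutases turn superoxide into hydrogen peroxide, SOD1 in the cytosol with copper and zinc, SOD2 in mitochondria with manganese, and SOD3 outside the cell, where it binds the matrix of the vessel wall. Catalase breaks hydrogen peroxide down in peroxisomes, glutathione peroxidases reduce it with glutathione, and peroxiredoxins reduce it with thioredoxin, which thioredoxin reductase recycles. In the aorta, smooth muscle is known as the main source of SOD3, and in atherosclerosis, lipid-loaded macrophages in the intima are a source of superoxide through the phagocyte NADPH oxidase.

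The total count per library lay between 44094263 and 75787978, so that 3 counts, taken as the smallest signal, amount to 0.0396 to 0.0680 CPM, counts scaled to library size (counting error only). The labels give abdominal aorta, although the extraction text speaks of an adipose type, and all 8 smooth muscle markers were detected. Their summed FPKM (fragments scaled to transcript length and library size, a level per length) was 12042 to 14137 in NC and 10241 to 13832 in H8, and 8277, 12129 and 1766 in H24 replicates 1, 2 and 3. The sum of 10 macrophage markers was 29.3 to 42.5 FPKM in NC, 40.2 to 229 in H8, and 380.0, 233 and 2451 in H24 replicates 1, 2 and 3. Across genes, which are not replicates, Pearson's r of log2 CPM was 0.918 and 0.891 between H24 replicate 3 and the other two H24 libraries, against 0.962 to 0.979 for all other pairs within a group. H24 replicate 3 thus stood apart, and values without it are given beside the members' calls that it changes. In bulk tissue, fewer cells of a type and less RNA per cell cannot be told apart.

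GPX1 was the most abundant of the 10 mRNAs in each group. Its mean level was 323 ± 73.3 FPKM in NC, 361 ± 56.8 in H8 and 966 ± 674 in H24 (SD, n = 3 in each), which placed it 105th, 105th and 27th among the 18900 detected genes. NQO1 was the least abundant, at 6.70 ± 1.25, 8.61 ± 1.48 and 8.95 ± 1.99 FPKM. In NC the order from high to low was GPX1, GPX3, SOD1, SOD3, GPX4, CAT, PRDX1, SOD2, TXNRD1 and NQO1. Among these neighbours the NC libraries of GPX3 and SOD1, of PRDX1 and SOD2, and of SOD2 and TXNRD1 overlapped, and the other neighbours did not. In H24 the order began with GPX1 and GPX3, whose libraries overlapped neither each other nor those of GPX4, the next in order, and the following neighbours overlapped down to TXNRD1. In H8, GPX3 had moved to the seventh place, and only GPX1 at the top and NQO1 at the bottom were apart from their neighbours.

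**Figure D1:**
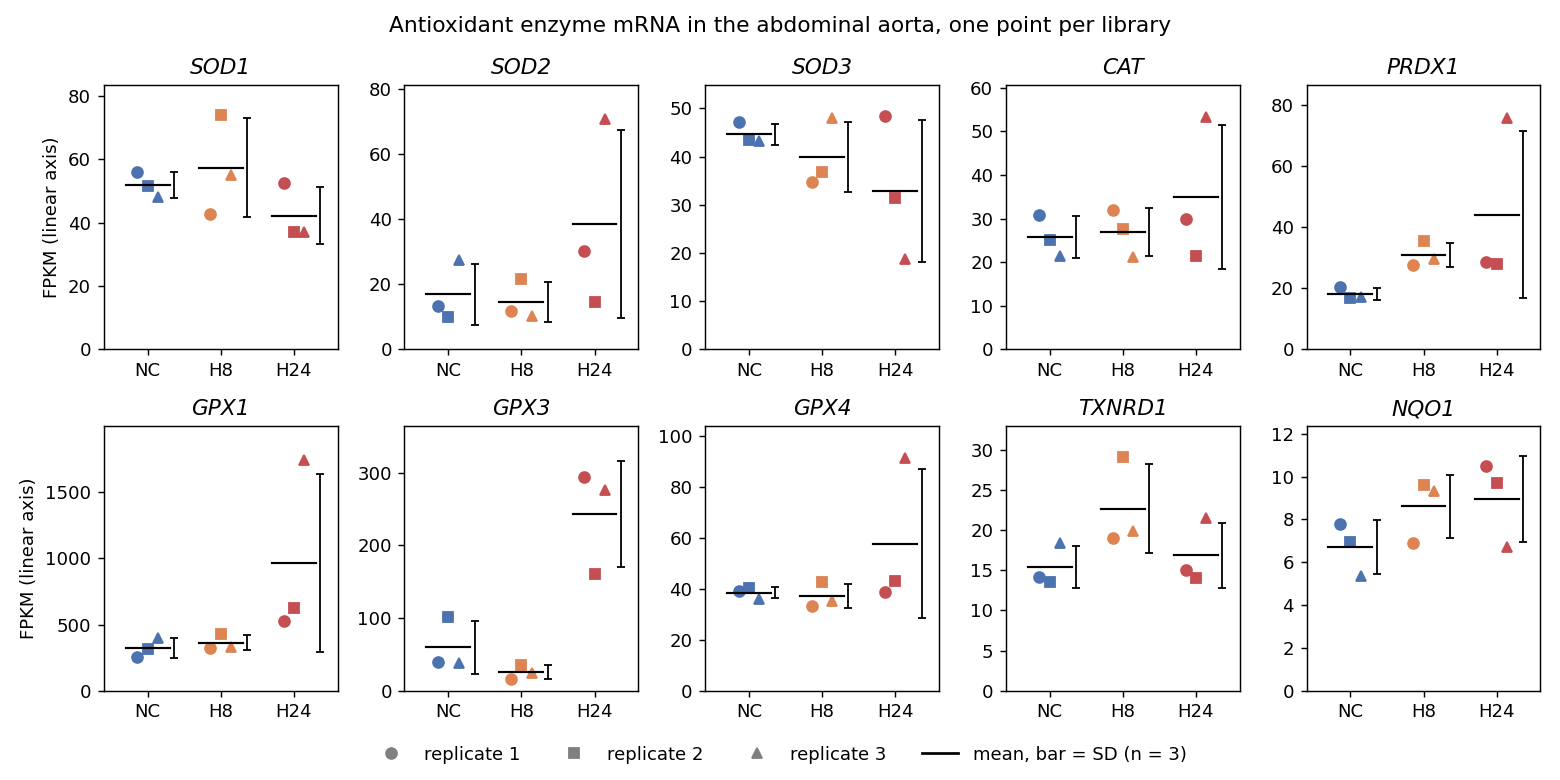
FPKM of the 10 antioxidant enzymes in each library (points, linear axes from 0), with group means as horizontal lines and SD as vertical bars, for NC, H8 and H24 (n = 3 each). GPX3 is lowest in H8 and highest in H24 without overlap of the groups, while GPX1, PRDX1, SOD2, GPX4 and CAT have their highest point in H24 replicate 3.

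Differences were called by the thresholds of the study, which ask for a doubling or halving (log2 fold change over 1 or under -1) and an edgeR p, not adjusted, under 0.05. The p printed beside each gene is the edgeR quasi-likelihood p after Benjamini-Hochberg adjustment over all tested genes. In H24/NC, 3 of the 10 members (GPX3, GPX1 and PRDX1) were up-regulated and none was down-regulated, where 9.95% of the 14828 genes tested were up- and 1.52% down-regulated. GPX3 was the 1 member still called without H24 replicate 3. The same 3 members had all H24 libraries above all NC libraries, as had 12.8% of all genes, and no member was apart in the other direction, as were 7.8% of all genes. In H8/NC no member was called, where 5.11% of 14336 genes were up- and 2.27% down-regulated by edgeR. Of the members, 2 had an unadjusted p under 0.05 there, and 1, GPX3, was called (down) by DESeq2 and by both limma fits on log2 FPKM. PRDX1 and TXNRD1 were higher in all H8 than in all NC libraries, as were 6.91% of all genes, and GPX3 was lower in all of them, as were 15.9%. In H24/H8, 2 members (GPX3 and GPX1) were up-regulated and none was down-regulated, where 7.22% of 14788 genes were up- and 3.05% down-regulated. Without H24 replicate 3 it was GPX3 alone. These 2 were also the members with all H24 above all H8 libraries, as were 15.5% of all genes, and none was below, as were 6.31%.

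No member had an adjusted p under 0.05 by edgeR, with 3, 2 and 2 members at an unadjusted p under 0.05 in H24/NC, H8/NC and H24/H8. In H24/NC 0% of all genes passed it with the fold threshold, with 2055 genes at an unadjusted p under 0.05, and in H8/NC and H24/H8 it was 0.0279% and 0.0135%. By DESeq2 on the same counts 954, 616 and 650 genes passed both. In that fit the adjusted p in H24/NC was 0.00186 for GPX3, in a range of 0.00186 to 0.471 over its 16 alternatives, and 0.0392 for GPX1, in a range of 0.0392 to 0.578. In H24/H8 it was 1.92e-09 for GPX3 (range 1.92e-09 to 0.507). The median log2 fold change of the 10 members was 0.49 in H24/NC, 0.25 in H8/NC and 0.24 in H24/H8, beside 0.01, 0.01 and 0.04 over all genes. With H24 replicate 3 left out, the members' median was 0.22 in H24/NC and -0.11 in H24/H8. Since H24/NC and H8/NC share the NC libraries, and H24/H8 shares its libraries with both, the 3 comparisons are not independent.

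**Figure D2:**
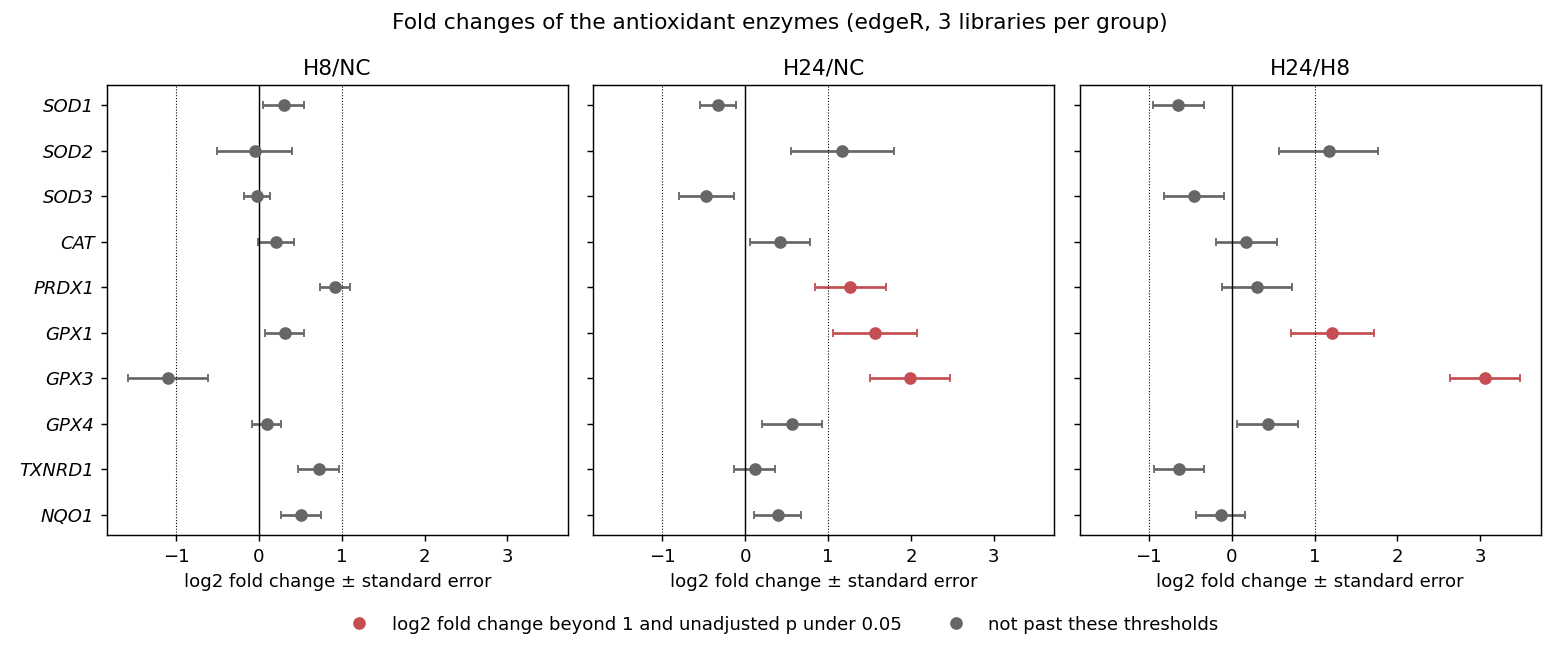
Log2 fold change of the 10 members in H24/NC, H8/NC and H24/H8 (edgeR, bars show the standard error), with dotted lines at the fold threshold of 1 in size and red for values past the study's thresholds. GPX3, GPX1, PRDX1 and SOD2 lie beyond 1 in H24/NC, of which the first 3 are red, and GPX3 has opposite signs in H8/NC and in the comparisons of H24.

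GPX3, the secreted glutathione peroxidase of plasma, had the largest change of the 10 in H24/NC and H24/H8. Its gene lies on chromosome 16 of Sscrofa11.1, the pig genome build, from 71980468 to 71989011 on the minus strand. Its level was 39.7, 101 and 37.7 FPKM in NC replicates 1 to 3, 16.3, 35.4 and 23.9 in H8, and 293, 160.2 and 276 in H24. The H24 libraries lay above all others, and the H8 libraries below all NC libraries, of which replicate 2 stood higher than the other two. In H24/NC it was up-regulated by a log2 fold change of 1.98 (SE 0.48, adjusted p = 0.149), a mean level 4.09 times that of NC. In H24/H8 the log2 fold change was 3.05 (SE 0.42, adjusted p = 0.215), a mean level 9.66 times that of H8. In H8/NC it was -1.10 (SE 0.48, adjusted p = 0.350), past the fold threshold, but the unadjusted edgeR p of 0.0557 missed its threshold. There GPX3 was called down-regulated in 10 of 16 alternative fits, and the log2 fold change was -0.44 without NC replicate 2. GPX3 passed the study's thresholds in 16 of 16 alternative fits of H24/NC and of H24/H8, including those without H24 replicate 3, where its log2 fold change in H24/NC was 1.88. At its 3' end, 3060 bases are shared with TNIP1 on the opposite strand. Whether reads were counted by strand is not given in the sources used here.

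GPX1 is the glutathione peroxidase of cytosol and mitochondria (chromosome 13, 31916246 to 31917433, minus strand). It had 256, 313 and 401 FPKM in NC replicates 1 to 3, 324, 427 and 334 in H8, and 529, 627 and 1743 in H24. The NC and H8 libraries overlapped, and the H24 libraries were above both. It was up-regulated in H24/NC by a log2 fold change of 1.56 (SE 0.51, adjusted p = 0.257) and in H24/H8 by 1.21 (SE 0.50, adjusted p = 0.356). The H24 replicate 3 level was 3.02 times the mean of the other two H24 libraries. Without it, the log2 fold change was 0.82 in H24/NC (adjusted p = 0.237) and 0.50 in H24/H8 (adjusted p = 0.535), and neither was called. The H24/H8 call was also lost without any 1 of the H8 libraries. The H24/NC call was also missed without NC replicate 1 (1.41, adjusted p = 0.578) and without NC replicate 2 (1.56, adjusted p = 0.516), where the unadjusted p was above 0.05. In H8/NC the value was 0.31 (SE 0.24, adjusted p = 0.576).

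GPX4 reduces lipid hydroperoxides within membranes (chromosome 2, 77320464 to 77323938, minus strand). It had 39.2, 40.3 and 36.0 FPKM in NC, 33.4, 42.5 and 35.3 in H8 and 38.7, 43.0 and 91.4 in H24. Its 6 NC and H8 libraries and the first pair of H24 libraries lay within 33.4 to 43.0 FPKM, and H24 replicate 3 was the exception. In log2 terms the difference was 0.57 (SE 0.36, adjusted p = 0.544) in H24/NC, 0.09 (SE 0.18, adjusted p = 0.839) in H8/NC and 0.43 (SE 0.37, adjusted p = 0.606) in H24/H8, and without H24 replicate 3 it was 0.06 in H24/NC. The gene lies within SBNO2 on the opposite strand over 3474 of its 3475 bases, and SBNO2 had 7.01, 15.0 and 48.6 FPKM in NC. Without strand, reads of the pair cannot be told apart.

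The superoxide dismutases did not pass the thresholds in any comparison. SOD1 (chromosome 13, 195326599 to 195335484, plus strand) had 56.1, 51.5 and 48.1 FPKM in NC, 42.9, 73.9 and 55.2 in H8, and 52.6, 37.0 and 37.0 in H24. The group ranges overlapped, with 2 of the 3 H24 libraries below every other library. The log2 fold change was -0.33 (SE 0.22, adjusted p = 0.559) in H24/NC, 0.30 (SE 0.25, adjusted p = 0.609) in H8/NC and -0.65 (SE 0.31, adjusted p = 0.392) in H24/H8. In the 3' part of SOD1, 2225 bases are shared with SCAF4 on the opposite strand.

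SOD2 (chromosome 1, 7679352 to 7691724, plus strand) had the widest range of the 3 dismutases. It was at 13.3, 9.95 and 27.6 FPKM in NC, 11.8, 21.5 and 10.2 in H8, and 30.2, 14.6 and 70.8 in H24. Each group held low and high libraries and all groups overlapped, with H24 replicate 3 at 3.16 times the mean of the other two. The log2 fold change of 1.17 in H24/NC was beyond the fold threshold but had an SE of 0.62 (adjusted p = 0.466). It was 0.37 without H24 replicate 3. In H24/H8 it was 1.17 (SE 0.60, adjusted p = 0.412) and 0.41 without that library, and in H8/NC -0.05 (SE 0.45, adjusted p = 0.975). SOD2 was called in H24/NC in 3 of 16 alternatives: with the replicate block, without H24 replicate 2 and without NC replicate 3. In H24/H8 it was also called in 3 of 16: with library size only, without H24 replicate 2 and without H8 replicate 2.

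SOD3, the extracellular enzyme (chromosome 8, 18796636 to 18804064, plus strand), had 47.2, 43.5 and 43.2 FPKM in NC, 34.7, 36.8 and 48.1 in H8, and 48.4, 31.4 and 18.9 in H24. The NC libraries were close to each other, while in H24 replicate 1 was the highest and replicate 3 was the lowest of the 9. The fitted log2 difference was -0.47 (SE 0.33, adjusted p = 0.579) in H24/NC, -0.03 (SE 0.16, adjusted p = 0.957) in H8/NC and -0.46 (SE 0.36, adjusted p = 0.579) in H24/H8. Without H24 replicate 3 it was -0.19 in H24/NC.

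Among the enzymes that remove hydrogen peroxide, CAT (chromosome 2, 26493626 to 26581452, minus strand) had 30.9, 25.1 and 21.3 FPKM in NC, 32.0, 27.6 and 21.1 in H8, and 30.0, 21.5 and 53.4 in H24. Apart from H24 replicate 3 its libraries lay between 21.1 and 32.0 FPKM in all groups. Its deposited gene model is 2.18 times as long as the RefSeq gene and shares 2121 bases with ABTB2 on the opposite strand. The log2 fold change was 0.42 (SE 0.36, adjusted p = 0.655) in H24/NC and -0.03 without H24 replicate 3, and it was 0.21 (SE 0.22, adjusted p = 0.705) in H8/NC and 0.17 (SE 0.37, adjusted p = 0.852) in H24/H8.

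PRDX1, a peroxiredoxin of the cytosol (chromosome 6, 165824594 to 165861430, plus strand), was the member with the smallest p in H8/NC. It had 20.3, 16.8 and 17.1 FPKM in NC, 27.5, 35.4 and 29.7 in H8, and 28.5, 28.1 and 75.7 in H24. All 6 libraries of the high-fat diet were above all NC libraries, and H8 and H24 overlapped. In H8/NC the log2 fold change was 0.92 (SE 0.18, adjusted p = 0.170), a mean level 1.71 times that of NC, which stayed under the fold threshold. By DESeq2 its adjusted p in H8/NC was 0.00255, in a range of 0.00255 to 0.550 over the 16 alternatives. In H24/NC it was up-regulated by 1.27 (SE 0.42, adjusted p = 0.268), and without H24 replicate 3 it was higher by 0.62 (adjusted p = 0.241), which is no longer a call. The H24/NC call was missed, too, without NC replicate 2 (1.24, adjusted p = 0.531) and without NC replicate 3 (1.21, adjusted p = 0.607). In H24/H8 the value was 0.31 (SE 0.42, adjusted p = 0.762). The deposited gene model of PRDX1 spans 36837 bases, 2.94 times the RefSeq gene, and shares 591 bases with AKR1A1 and 646 with MMACHC on the opposite strand, so its FPKM depends on that model.

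TXNRD1 is the cytosolic thioredoxin reductase and a selenoprotein (chromosome 5, 80170334 to 80236277, minus strand). It had 14.2, 13.5 and 18.4 FPKM in NC, 19.1, 29.1 and 19.9 in H8, and 15.0, 14.1 and 21.5 in H24. It was highest in H8, where all libraries were above NC, and H24 overlapped both. Its log2 fold change was 0.72 (SE 0.25, adjusted p = 0.264) in H8/NC, under the fold threshold. It was 0.11 (SE 0.25, adjusted p = 0.876) in H24/NC and -0.64 (SE 0.30, adjusted p = 0.392) in H24/H8.

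NQO1 reduces quinones in the cytosol and is a classic target of the transcription factor NFE2L2 (chromosome 6, 17292770 to 17302627, plus strand). It had 7.80, 6.96 and 5.34 FPKM in NC, 6.91, 9.61 and 9.31 in H8, and 10.5, 9.69 and 6.70 in H24. All groups overlapped. The log2 fold change was 0.39 (SE 0.28, adjusted p = 0.583) in H24/NC, 0.51 (SE 0.24, adjusted p = 0.384) in H8/NC and -0.13 (SE 0.30, adjusted p = 0.865) in H24/H8.

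The make-up of each family was compared as the share of its summed FPKM within a library. Of the 3 glutathione peroxidases, GPX1 made up 76.6% ± 7.82 in NC, 85.4% ± 1.14 in H8 and 73.2% ± 10.8 in H24 (SD, n = 3). GPX3 made up 11.9%, 22.3% and 7.94% in NC, 4.36%, 7.01% and 6.09% in H8, and 34.1%, 19.3% and 13.1% in H24. The H8 shares of GPX3 were below those of both other groups, while NC and H24 overlapped. GPX4 held 11.7%, 8.87% and 7.58% in NC, 8.95%, 8.43% and 9.0% in H8, and 4.49%, 5.19% and 4.33% in H24, so that its share was lower in all H24 libraries although its FPKM was not. Of the 3 dismutases, SOD2 held 11.4%, 9.49% and 23.2% in NC, 13.2%, 16.3% and 8.95% in H8, and 23.0%, 17.6% and 55.9% in H24. Its H24 shares were above those of H8 and overlapped those of NC. With 3 libraries a group the two-sided exact permutation test cannot go below p = 0.1. Of 18 such tests, 8 reached that value, with an adjusted p of 0.225, so no shift in share passed a threshold of 0.05.

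**Figure D3:**
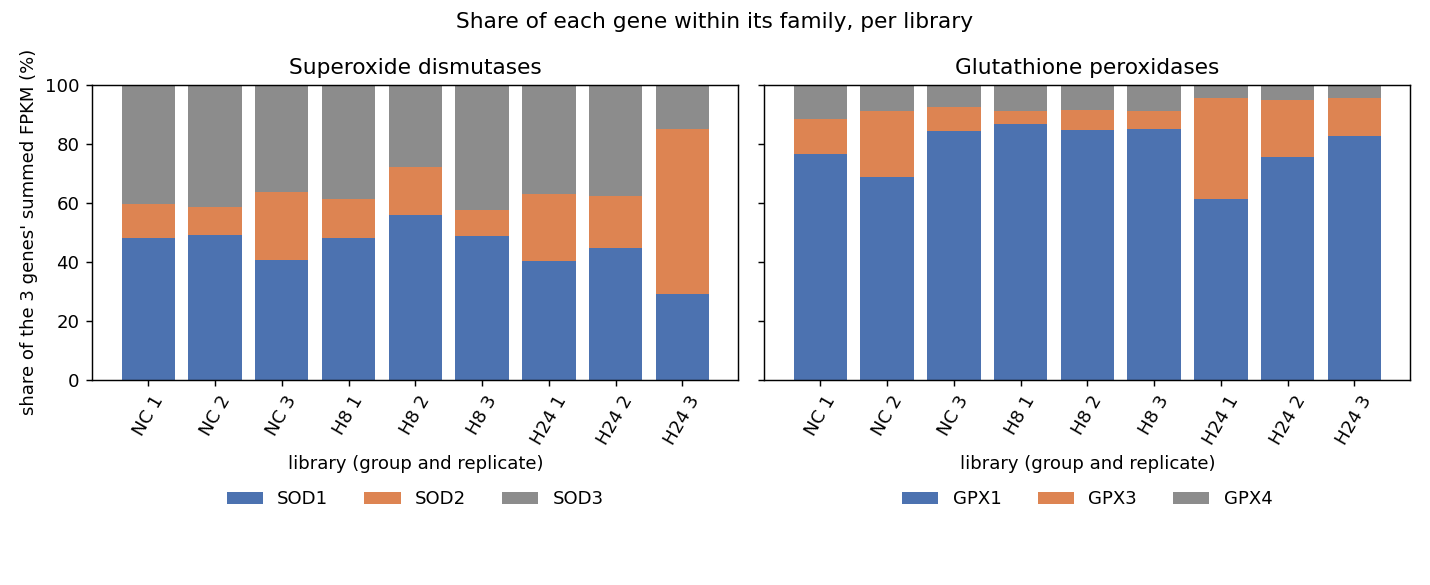
Share (%) of each dismutase in the summed FPKM of SOD1 to SOD3, and of each peroxidase in that of GPX1, GPX3 and GPX4, as stacked bars for each of the 9 libraries. In H24 replicate 3 SOD2 makes up 55.9% of the dismutases, and GPX4 makes up 4.33% to 5.19% of the peroxidases in H24 against at least 7.58% in all other libraries.

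The members were set beside markers of the cell types that the vessel could hold. In H24/NC, where 9.95% of all genes were up-regulated, 10 of 10 macrophage markers were (median log2 fold change 4.83), and 9 of 10 without H24 replicate 3. Of the 8 smooth muscle markers 0 passed the edgeR thresholds (0 with an unadjusted p under 0.05, and 1 called by DESeq2), with a median of -0.88, and -0.38 without H24 replicate 3. In H8/NC, where 5.11% of all genes were up-regulated, 7 of 10 macrophage markers were (median 1.89). In H24/NC 3 of 4 T cell, 2 of 4 fibroblast and 1 of 5 adipocyte markers were up-regulated, and 0 of 5 endothelial, 2 B cell, 2 erythroid and 1 skeletal muscle markers tested were called by edgeR. The T cell markers were low, with a sum of 0.16 to 0.34 FPKM in NC against 2.93 to 16.9 in H24. Of the B cell markers, CD79A had an unadjusted p under 0.05 at a log2 fold change of 0.97, and DESeq2 called the other, CD79B, down-regulated. GPX1, PRDX1, SOD2, GPX4 and CAT were highest in H24 replicate 3, the library with the highest macrophage sum, and SOD3 was lowest in it, the library with the lowest smooth muscle sum. SOD3 was highest in H24 replicate 1 (48.4 FPKM), where the smooth muscle sum of 8277 was below all NC and H8 libraries. In H24 replicate 2 SOD3 was 31.4 FPKM at a sum of 12129, which was within the NC range. PRDX1 was also above NC in H8 replicate 2, at 35.4 FPKM, where the macrophage sum of 40.2 was within the NC range. GPX3 was lowest in H8, where the macrophage sums reached 229 FPKM. The adipocyte marker ADIPOQ was 4.44, 14.6 and 6.83 FPKM in NC, 0.10, 0.11 and 0.08 in H8, and 7.24, 0.07 and 0.42 in H24. It was low where GPX3 was low in H8 and highest in NC replicate 2, where GPX3 was highest in NC. In H24 replicate 2, where GPX3 was 160.2 FPKM, ADIPOQ and PLIN1 (0.13 FPKM) were near 0. Of the other adipocyte markers, CIDEC was 4.19, 2.31 and 8.15 FPKM in H24 against 0.46 to 0.99 in H8. LEP was 0.83, 0.35 and 0.99 against 0.06 to 0.08, and FABP4 was 88.2, 54.3 and 77.2 against 47.9 to 139. In H8/NC 3 of 4 adipocyte markers tested (ADIPOQ, PLIN1 and CIDEC) were down-regulated, with a median log2 fold change of -4.02, and in H24/H8 4 of 5 (these and LEP) were up-regulated, with a median of 3.14. Of all genes, 2.27% were down-regulated in H8/NC and 7.22% up-regulated in H24/H8. The adipocyte marker up-regulated in H24/NC was LEP, at 2.53. The summed 5 adipocyte markers ranged from 89.7 to 157 FPKM in NC, 49.1 to 140.3 in H8 and 57.2 to 106 in H24, and none of the 5 was at 0 in every library. The part of these cell types in the members' values was not tested. Without H24 replicate 3 the log2 fold change of GPX3 in H24/NC was 1.88. The macrophage sums of H24 replicates 1 and 2, at 380.0 and 233 FPKM, were still above the NC range of 29.3 to 42.5.

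**Figure D4:**
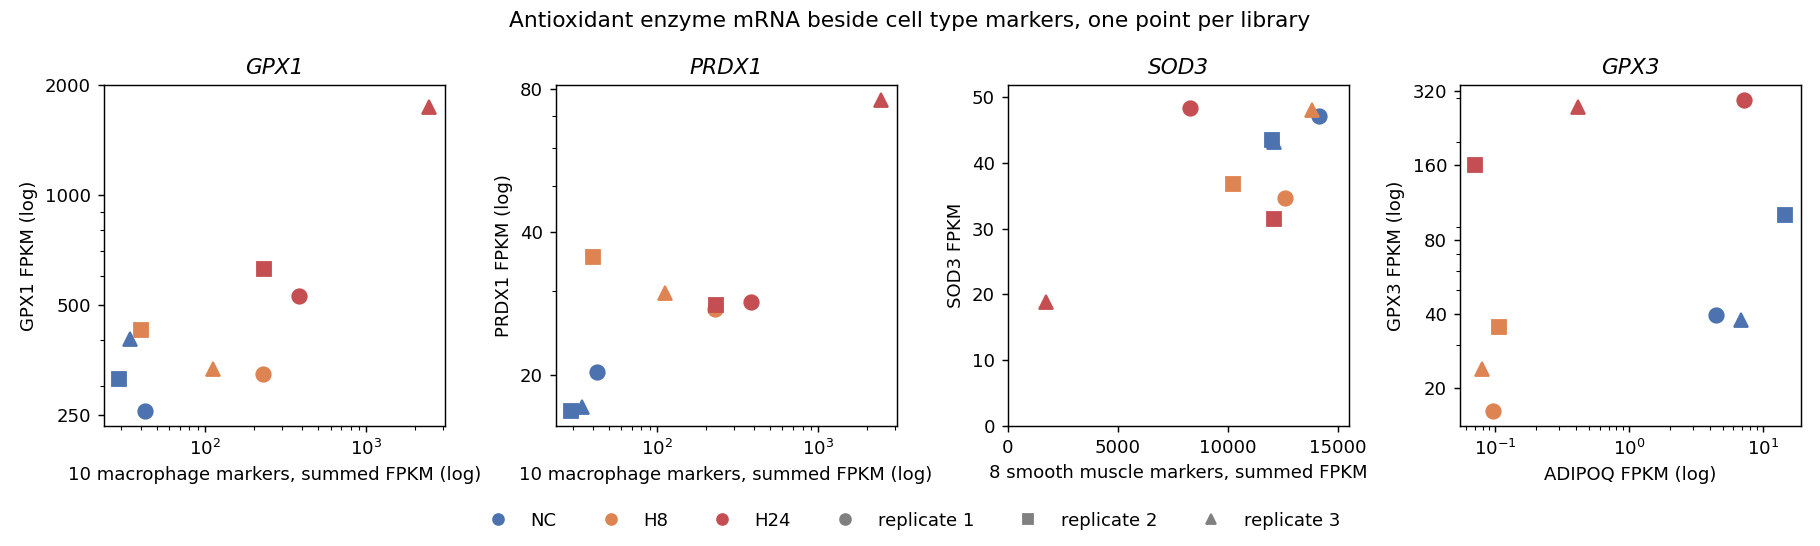
FPKM of GPX1, PRDX1, SOD3 and GPX3 in each library against marker genes: the sum of 10 macrophage markers (GPX1 and PRDX1), the sum of 8 smooth muscle markers (SOD3, linear axes from 0) and ADIPOQ (GPX3). The other axes are logarithmic. ADIPOQ is 1 of 5 adipocyte markers, which did not all share its pattern. H24 replicate 3 has the highest macrophage sum (2451 FPKM) and the lowest smooth muscle sum (1766 FPKM), and the 3 H24 points of GPX3 are above all others at ADIPOQ levels from 0.07 to 7.24 FPKM.

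For each member the genes with the nearest profile over the 9 libraries were found by the root mean square difference of log2 values around each gene's own mean, among 9577 named genes. GPX4 was nearest to APRT (0.0991), ENO1 (0.113) and TALDO1 (0.114), and TXNRD1 to AKIRIN2 (0.0973), ALG14 (0.132) and OPTN (0.139). GPX1 was nearest to MID1IP1 (0.181), IL27RA (0.204) and TPST1 (0.235), and PRDX1 to TMED3 (0.164), RAB3IL1 (0.166) and SNX30 (0.170). GPX3 was nearest to XG (0.427), MYBPH (0.583) and STEAP3 (0.589), at larger distances. SOD2 was nearest to BAZ1A (0.306), VMP1 (0.340) and TNFRSF6B (0.343). The distance was not scaled to a gene's range, and GPX3 and SOD2 had the widest ranges of the 10, with a highest FPKM 18.0 and 7.12 times the lowest. Their larger distances therefore do not show that genes of a similar pattern were missing. SOD1 was nearest to CTNNB1 (0.131), SPTSSA (0.135) and KLHL2 (0.135), SOD3 to HMGN3 (0.123), C16orf87 (0.147) and OTUD7B (0.150), CAT to AIFM2 (0.160), TMX1 (0.165) and DPYD (0.166), and NQO1 to ADCY3 (0.169), TXNRD3 (0.174) and NFIX (0.181). The points share libraries and the distances are a description.

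The enzymes that supply and recycle the cofactors of the members were followed as lists. In H24/NC, of 17 tested genes of the glutathione system, which makes, reduces and uses glutathione, 0 passed the edgeR thresholds and 0 had an unadjusted p under 0.05 (median log2 fold change 0.06), while DESeq2 called 1. MGST1, a microsomal glutathione transferase, had a log2 fold change of 1.69 (adjusted p = 0.369), and GSR, which reduces oxidised glutathione, 1.04 (adjusted p = 0.447). These fell to 0.50 and 0.18 when H24 replicate 3 was left out. Of 16 genes of the thioredoxin and peroxiredoxin system, 1 was called, PRDX2, which was down-regulated, as were 1.52% of all genes. PRDX2, an abundant peroxiredoxin of red blood cells, had 20.0, 143 and 192 FPKM in NC, 119, 199.6 and 53.6 in H8, and 16.5, 19.4 and 18.7 in H24. Its H24 libraries were below all others, with NC replicate 1 close to them, and the log2 fold change was -2.73 (SE 0.74, adjusted p = 0.183) in H24/NC. The red cell gene HBB was at 30.2, 124 and 122 FPKM in NC and at 83.7, 249 and 19.3 in H24, and the part of blood in the PRDX2 values was not tested. The deposited gene model of PRDX2 overlaps those of HOOK2 and JUNB, and JUNB was at 0 FPKM in every library. Whether the PRDX2 values hold reads of these genes was not tested either. Of 8 genes of copper loading and peroxisome import, 0 were called by edgeR (0 with an unadjusted p under 0.05, and 0 by DESeq2).

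Of 14 selenoproteins and genes of selenium handling, 2 were up-regulated in H24/NC, where 9.95% of all genes were. SELENOP, which carries selenium in plasma, had 60.1, 70.3 and 58.7 FPKM in NC, 76.9, 44.8 and 51.1 in H8, and 147, 78.3 and 221 in H24. All H24 libraries were above the others, by a log2 fold change of 1.21 (SE 0.39, adjusted p = 0.254) against NC. SELENOM, an oxidoreductase of the endoplasmic reticulum, was higher by 1.11 (SE 0.34, adjusted p = 0.239). SELENOP was at 0.80 and not called without H24 replicate 3, and its call was also lost without NC replicate 1 or NC replicate 3. SELENOM lost its call without H24 replicate 2 or NC replicate 1, at a lowest value of 0.75. Of 20 genes of NFE2L2 regulation and targets, 2 were up-regulated in H24/NC, where 9.95% of all genes were: FTL, the light chain of ferritin (log2 fold change 2.42, adjusted p = 0.242), and TKT, the transketolase of the pentose phosphate pathway (adjusted p = 0.351). TKT had 62.6, 63.3 and 228 FPKM in H24 against 41.2 to 53.9 in NC. FTL had 1024, 897 and 5573 FPKM in H24 against 348 to 527 in NC. Without H24 replicate 3 the log2 fold change was 1.03 for FTL, still a call, and 0.39 for TKT, which was not called. The call of TKT was lost without any 1 of the NC libraries too, and that of FTL without NC replicate 3. In H8/NC, 4 other genes of this list of 20 were up-regulated, where 5.11% of all genes were. They were SRXN1, which reactivates peroxiredoxins (1.92), SLC7A11, the cystine carrier (1.97), OSGIN1 (2.12) and BACH1, a repressor of the pathway (1.54). These 4 were named after their values were seen. All 4 were highest in H8 replicate 2, at 31.4, 6.03, 16.5 and 7.45 FPKM, which was also the highest of the 9 libraries for TXNRD1 and SOD1. Without that library OSGIN1 was still called (1.39), and SRXN1 (0.88), SLC7A11 (0.76) and BACH1 (0.28) were not. These 3 calls were also lost without NC libraries: that of SRXN1 without replicate 1 or 3, that of SLC7A11 without replicate 2 and that of BACH1 without any 1 of the 3.

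Of 10 tested sources of superoxide and peroxide, 7 were up-regulated in H24/NC (median log2 fold change 3.68), 3 up- and 1 down-regulated of 6 in H8/NC, and 7 of 10 up-regulated in H24/H8. XDH, DUOX1 and DUOX2 were among the 7 in H24/NC at low levels. XDH was at 0 FPKM in all NC and H8 libraries and at 0.0086, 0 and 0.74 in H24. DUOX1 had at most 0.052 FPKM in NC and 0.12, 0.060 and 0.45 in H24. DUOX2 had at most 0.17 in NC and 0.35, 0.14 and 2.53 in H24. They reached the mean of 0.1 FPKM for testing only with the H24 libraries, and were not tested in H8/NC. By DESeq2, 4 of 6 genes with a p were up-regulated in H24/NC (median 2.62). CYBA, a membrane subunit of the phagocyte NADPH oxidase, had 23.3, 21.3 and 13.1 FPKM in NC, 34.2, 24.5 and 29.6 in H8 and 54.3, 54.4 and 324 in H24. Its H24 libraries were above all others, with a log2 fold change of 2.89 (SE 0.78, adjusted p = 0.178) in H24/NC. NCF1, NCF4 and RAC2 of the same complex had log2 fold changes of 4.34, 4.03 and 4.60. Without H24 replicate 3 these 4 genes were still called, at 1.47 to 2.56, and 4 of 7 tested genes of the list were. DUOX1 and XDH were not tested in that fit. Over all lists together, 11 of 82 genes were up- and 1 down-regulated in H24/NC, 8 and 2 of 78 in H8/NC, and 9 and 4 of 82 in H24/H8. Some genes belong to several lists and were counted once here. The shares of all genes up- and down-regulated were 9.95% and 1.52%, 5.11% and 2.27%, and 7.22% and 3.05%. The median log2 fold changes of the listed genes were 0.20, 0.14 and 0.03. With H24 replicate 3 left out, 6 were up- and 1 down-regulated of 79 in H24/NC (median 0.06), and 4 up- and 5 down-regulated of 79 in H24/H8 (median -0.06). Of the listed genes, GSTP1, GLRX, TXN, HMOX1, FTH1, SELENOK, SEPHS2 and CYBB were not analysed here.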

How the data were processed

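The authors prepared paired-end poly(A) libraries, used HISAT2 2.0 for mapping, with Sscrofa11.1 as the genome, and deposited FPKM values of 21357 genes from StringTie 1.3.0. The deposited table also gives an estimated count, a whole number not scaled for depth, for each gene and library; how it was derived, the annotation release and the strand setting are not given in the sources used here. The submitters' processing notes also list Bowtie 0.12.2 and the mouse build mm8, without a role. Libraries were grouped by their labels, and 3 pigs a group are the replicates. The counts were tested with edgeR 4.0.16 in R 4.3.3 (quasi-likelihood, TMM, two-sided, the 2 groups compared, only genes whose FPKM averaged at least 0.1 over those libraries), with the study's thresholds for a call and a Benjamini-Hochberg adjusted p beside it. The SE is the log2 fold change divided by the root of the F statistic. The test was checked on simulated data. Alternatives used DESeq2 1.42.0, limma 3.58.1 (on log2 of FPKM plus 0.1 or 1), other scaling and filters, a replicate block and each library left out. The package data.table (version 1.17.8) read the files.

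The members, lists and tests were chosen with earlier results of these data known. Beside the members, the text names in each list at most 4 genes with the smallest p in H24/NC and a mean FPKM of at least 1, the 3 nearest profiles of each member (pseudocount 0.1, mean FPKM of at least 1) and cell type markers. SRXN1, SLC7A11, OSGIN1, BACH1, MAFK, NOS2, DUOX1, DUOX2 and XDH were named outside this rule after their values were seen. ADIPOQ, PLIN1, CIDEC, LEP, FABP4, CD79A, CD79B and HBB are from the marker lists. For a repeated name, the row of the highest mean FPKM was used. Some genes planned for the lists are not reported here, and the lists were counted without them. Protein and phenotype measurements were not used here.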

Additional observations from a re-analysis of the deposited data

Results flagged for a closer look

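The differences of H8 and of H24 from NC were compared by the H24/H8 difference itself, in which the length of the diet and the age cannot be told apart. It was past the study's thresholds (edgeR) for 2 members and 13 of 82 genes of the lists. No adjusted p was under 0.05 among the members and the genes named here. Among members the log2 fold change H24/H8 was 3.05 for GPX3 and 1.21 for GPX1. The call of GPX1 was lost without H24 replicate 3, at 0.50, and without any 1 of the H8 libraries. GPX3 was lower than NC in every H8 library and higher in every H24 library. For the 7 of the 13 listed genes that fall under the naming rule the value was -2.99 for PRDX2, 1.74 for FTL, 1.18 for SELENOP, 2.10 for CYBA, 2.94 for NCF4, 2.95 for NCF1 and 3.06 for RAC2. That rule goes by the p in H24/NC. Outside it, OSGIN1 (-2.10), SLC7A11 (-2.28) and MAFK (-1.26) were down-regulated, the first and second of which were up-regulated in H8/NC. DUOX2 (3.25), XDH (9.64) and NOS2 (1.56) were up-regulated, at low FPKM. PRDX2, NCF1, NCF4, OSGIN1 and MAFK were called with any 1 library left out. Without H24 replicate 3, FTL (0.39), SELENOP (0.79) and CYBA (0.72) were not called, and RAC2 was at 1.01 and still called. With each of the 6 libraries left out in turn, FTL and SELENOP lost their call in 4 fits, CYBA in 3 and RAC2 in 2. SLC7A11 lost its call in 1 fit, DUOX2 in 3 and NOS2 in 5. XDH lost it in 3 and could not be tested without H24 replicate 3.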

How the results depend on the processing

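GPX3 was called in H24/NC and H24/H8 in 16 of 16 alternatives each, at log2 fold changes of 1.73 to 2.64 and 2.80 to 3.47. GPX1 was called in 13 of 16 (H24/NC) and 11 of 16 (H24/H8), and PRDX1 in 13 of 16 (H24/NC). Members called ranged from 1 to 4 in H24/NC with 1 library left out, from 0 to 1 in H8/NC and from 1 to 3 in H24/H8. In H8/NC 1 member, GPX3, was called with library size only, DESeq2, both limma fits, no filter, all 9 libraries in one fit and the replicate block. In H24/H8 1 member was called with the replicate block, and the cause was not tested. Calls over all related lists with 1 library left out ranged from 7 to 18, 7 to 11 and 6 to 14 in H24/NC, H8/NC and H24/H8. Same-numbered libraries of different groups deviated with r of -0.060 to 0.102, so the numbers were not taken as pairs, and only 2 or 3 of 6 libraries correlated best with their own number.

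Signs of values that were not called turned in some alternatives. GPX4 in H8/NC was -0.065 with library size only and -0.059 and -0.057 in the limma fits on log2(FPKM + 0.1) and log2(FPKM + 1), and NQO1 in H24/H8 was 0.074, 0.045 and 0.042 in these. With 1 library left out, ranges were -0.10 to 0.17 (GPX4, H8/NC), -0.039 to 0.66 (GPX4, H24/H8), -0.017 to 0.48 (SOD1, H8/NC), -0.55 to 0.48 (SOD2, H8/NC), -0.14 to 0.064 (SOD3, H8/NC), -0.032 to 0.66 (CAT, H24/NC), -0.25 to 0.40 (CAT, H24/H8), -0.31 to 0.55 (PRDX1, H24/H8), -0.28 to 0.047 (NQO1, H24/H8) and -0.10 to 0.24 (TXNRD1, H24/NC). Scaling by library size only moved the median of all genes to -0.13 in H8/NC and 0.24 in H24/H8, and the share of calls that were up-regulated from 69.2% to 55.7% and from 70.3% to 83.3%. With limma on log2(FPKM + 0.1) the latter shares were 47.3% and 75.6%. Over all genes, up- and down-regulated numbers of 1475 and 225 (H24/NC), 733 and 326 (H8/NC) and 1068 and 451 (H24/H8) became 714 and 141, 202 and 141, and 517 and 177 with limma on log2(FPKM + 1), and 1079 and 141 (H24/NC) and 440 and 178 (H8/NC) at a mean FPKM of at least 1. Without H24 replicate 3 they were 946 and 186 (H24/NC) and 547 and 365 (H24/H8). Groups of 3 and the spread of H24 limit what could be called.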
